A study of Mus musculus with 240 samples.

Results

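Chemokines are small secreted proteins that guide migrating cells by binding receptors coupled to inhibitory G proteins, and they are grouped by the spacing of their first cysteines into CC, CXC, CX3C and C ligands. Atypical receptors (Ackr genes and Ccrl2) bind chemokines without that signalling and remove or present them. In the brain, CXCL12 with its receptors CXCR4 and ACKR3 places precursor cells, neuronal CX3CL1 acts on microglia through CX3CR1, and CXCL1 acts on oligodendrocyte precursor cells through CXCR2, while ligands such as CCL2, CCL5 and CXCL10 are induced in inflammation and attract monocytes and T cells. The genes described here are the 59 protein-coding rows, of 34623 genes in the table, whose symbols begin with Ccl or Cxcl and a number, or are Cx3cl1, Xcl1, a Ccr, Cxcr or Ackr gene with a number, or Ccrl2. They comprise 38 ligands (24 CC, 12 CXC, Cx3cl1 and Xcl1) and 21 receptors (10 CC, 6 CXC and 5 atypical, Ccrl2 included). No measured value entered the choice. The rule leaves out 3 rows of other biotypes (Cxcl11, Ccl19-ps1 and Ccl19-ps3) and family genes with other names, such as Cx3cr1.

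RNA was sequenced from tdTomato-positive oligodendrocyte precursor cells (OPCs) captured by laser from mouse brain. The mice were Trp53-/- Nf1-/- (CKO) or wild-type (WT), and all had received tamoxifen, from the start of which days (dpi) are counted. The bulk groups were WT at 12 dpi (5 animals), 90 dpi (5) and 150 dpi (6), CKO at 12 dpi (7) and 90 dpi (7), and CKO tumours at 150 dpi (7), with both sexes in each. The 112 libraries of 10 cells and 80 libraries split from pools of captured cells came from CKO mice of both sexes at 12 and 90 dpi. The Cre driver and the ages of the mice are not given in the sources used here, and no CKO animal without a tumour was sampled at 150 dpi, so tumour and time can be told apart only through the WT animals.

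The 48 bulk libraries of the 37 animals held from 93694 to 23199230 counts each, and 11 animals had 2 libraries, all 7 tumours among them. The shallowest, WT_21167 at 90 dpi, is named where it sets a value. Levels are in CPM, counts per 1000000 of the scaled library total, or of the unscaled total where single libraries are described. The summed level of 12 OPC markers was 2096 to 4158 CPM in the 30 animals of the WT and earlier CKO groups and 4795 to 12770 CPM in the 7 tumours. All non-tumour groups also held neuronal RNA: 10 neuron markers summed to 6687 to 16100 CPM there, against 268 to 1517 CPM in tumours. The part that neuronal RNA plays in the results below was not tested.

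Of the 59 genes, 29 passed the filter on low counts and were tested, 19 ligands and 10 receptors, and 30 did not. Single genes moved in both directions in the tumours, which describes those genes and not the family as a whole. The abundant brain chemokines Cx3cl1, Cxcl12 and Ccl27a and the atypical receptor Ackr1 were lower, while Cxcl10, Ccl5, Ccl2, Ccl12, Ccl3, Cxcl16 and the receptor Cxcr4 were higher. Against WT at 150 dpi, 12 tested genes were higher, where 24.3% of all 16349 tested genes were called higher (edgeR quasi-likelihood test, Benjamini-Hochberg adjusted p under 0.05). Another 4 of the 29 were lower, a smaller share than the 21.9% of all genes called lower. Groups did not overlap for 7 of the 12 (6.71% of all genes were called higher without overlap) and for all 4 of the lower genes (8.94%). Several of the 29 passed the filter mainly through their levels in tumours: Ccl21a, Ccl2, Ccl3, Ccl5, Cxcl1, Ccl22 and Cxcl10. Of the 30 other animals, at least 10 counts were reached by 1 for Ccl21a, by 2 each for Ccl2, Ccl5 and Cxcl1, and by 4 for Ccl22. For Cxcl10 and Ccr2 it was 5 each, and for Ccl3 7. The filter works on CPM, not on raw counts. Outside tumours, Ccl3 exceeded 1 CPM only in CKO_21724, CKO_22208 and WT_22056. Ccr2 exceeded it in animals of CKO at 12 dpi and of WT at 12 and 150 dpi. The numbers of higher genes are thus a description of those that passed, here and against CKO, and no median over the 29 is given.

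Against CKO at 90 dpi, in a comparison that uses the same 7 tumours, 13 genes were higher, beside 26.4% of all genes tested, and 4 were lower, beside 22.6%. Groups did not overlap for 5 of the higher genes (6.75% of all genes) and for the 4 lower ones (10.5%). Ccl12, Ccl2, Ccl21a, Ccl3, Ccl5, Ccl6, Cxcl1, Cxcl10, Cxcl16 and Cxcr4 were higher in each comparison. Ccl25 and Ccr9 were called higher only against WT, and Ccl28 and Ccr2 were among those called only against CKO, and whether these genes differ between the comparisons was not tested. The plot of changes sets the values side by side.

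**Figure D1:**
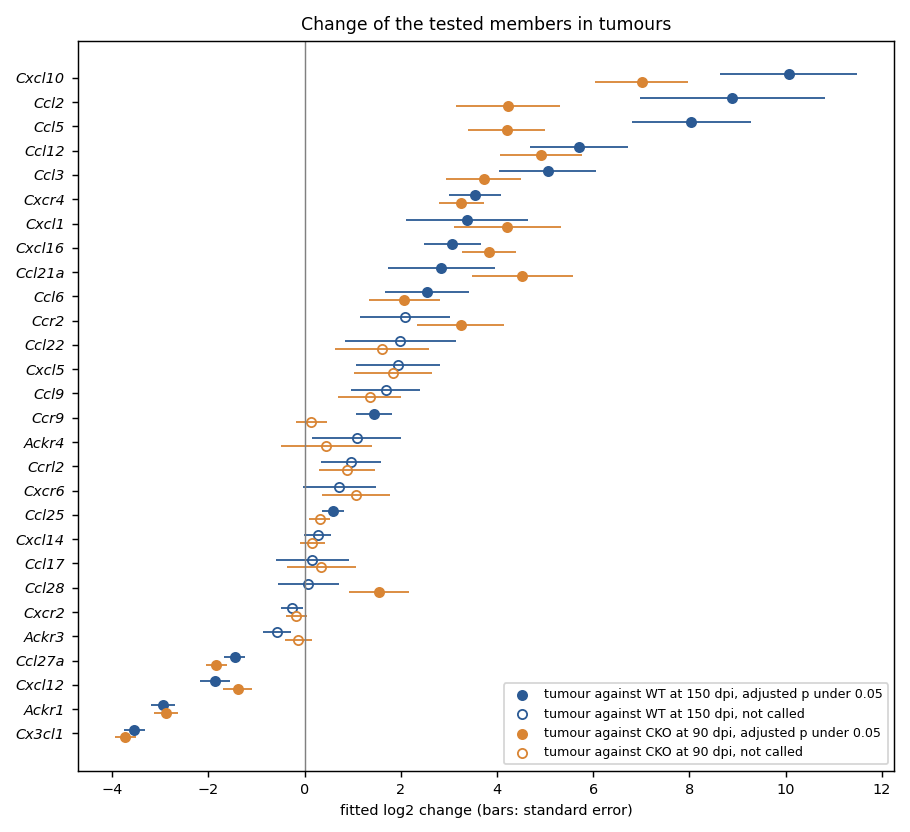
Fitted log2 change of 28 of the 29 tested genes (vertical axis) in the 7 tumours against 6 WT animals at 150 dpi (blue) and against 7 CKO animals at 90 dpi (orange), with standard errors as bars and filled points for an adjusted p under 0.05. The changes against WT run from -3.54 for Cx3cl1 to 10.07 for Cxcl10.

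The summed level of the 38 ligands had a lower median in tumours, while more of the genes reached 1 CPM. Ligands summed to 444, 479 and 596 CPM (lowest, median and highest) in WT at 150 dpi and to 108, 191 and 549 CPM in tumours. Without Cx3cl1 the sums were 94.6, 116 and 156 CPM in WT at 150 dpi and 90.1, 166 and 518 CPM in tumours, which overlap. At least 1 CPM was reached by 14 to 18 of the 59 genes in the WT animals at 150 dpi, by 13 to 17 in CKO at 90 dpi and by 24 to 35 in the tumours. These sums are descriptions and were not tested.

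Cx3cl1 encodes the membrane-bound and shed ligand of the microglial receptor CX3CR1, and it lies at chr8:94772009-94782427 (GRCm38, plus strand). Its level was 275, 291, 355, 387 and 401 CPM in WT at 12 dpi and 327, 332, 343, 364 and 434 CPM in WT at 90 dpi. In WT at 150 dpi it was 301, 377 and 479 CPM (lowest, median and highest), in CKO at 12 dpi 318, 397 and 546 CPM, and in CKO at 90 dpi 333, 387 and 566 CPM. These 5 groups overlapped, and every tumour, at 17.2, 31.2 and 58.3 CPM, was below every other animal. The fitted change was -3.54 ± 0.22 (log2 ± SE, adjusted p = 8.2e-16, edgeR) against WT at 150 dpi and -3.73 ± 0.22 (adjusted p = 1.6e-16) against CKO at 90 dpi. In bulk samples, fewer cells of a type and less RNA per cell cannot be told apart. Neuron markers fell with it: 9 of the 10 were called lower against WT, beside 21.9% of all genes. Snap25 (a synaptic membrane protein) went from a median of 4557 to 180 CPM. The part of neuronal RNA in the fall of Cx3cl1 was not tested. Its receptor Cx3cr1, a microglial marker outside the symbol rule, moved the other way, from a median of 12.2 to 50.8 CPM (log2 change 1.99 ± 0.27, adjusted p = 1.6e-07, edgeR).

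Cxcl12, the ligand of Cxcr4 and Ackr3 (chr6:117168535-117181367, plus strand), stood at 32.6, 42.0 and 93.1 CPM in WT at 150 dpi, at 20.1, 39.9 and 46.2 CPM in CKO at 90 dpi and at 2.30, 15.4 and 19.2 CPM in tumours. The tumours again did not overlap with either group. The fall was -1.86 ± 0.30 against WT (adjusted p = 4.2e-06) and -1.39 ± 0.29 against CKO at 90 dpi (adjusted p = 0.00015, edgeR). Pericyte markers, which mark vessel wall cells, moved too: 5 of 7 were called lower against WT, beside 21.9% of all genes. Against CKO at 90 dpi 1 was called lower and 1 higher. Their summed level went from 356, 508 and 659 CPM in WT at 150 dpi to 116, 176 and 293 CPM in tumours. Of 10 endothelial markers, 3 were called lower against WT, and 1 was called higher and 0 lower against CKO at 90 dpi. Their part in the fall of Cxcl12 was not tested.

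Ccl27a is a CC ligand best known from skin (chr4:41769467-41774247, minus strand). It was at 17.1, 27.3 and 33.7 CPM in WT at 150 dpi, at 23.4, 28.7 and 54.9 CPM in CKO at 90 dpi and at 4.44, 9.56 and 13.7 CPM in tumours. The change was -1.45 ± 0.22 against WT (adjusted p = 1.5e-06) and -1.83 ± 0.22 against CKO (adjusted p = 8.0e-09, edgeR), with no overlap in either comparison. Ccl27b, a near-identical gene to which reads can be split, had 28 counts over the 6 WT animals at 150 dpi and 0 over the tumours and over CKO at 90 dpi, so the share of each copy is uncertain.

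Ackr1 is the Duffy chemokine receptor, which binds many inflammatory CC and CXC ligands on red cells, venules and some neurons (chr1:173331886-173333750, minus strand). It was at 12.5, 30.9 and 43.1 CPM in WT at 150 dpi, at 18.0, 30.2 and 38.0 CPM in CKO at 90 dpi and at 2.37, 3.73 and 5.69 CPM in tumours. The change was -2.95 ± 0.25 against WT (adjusted p = 4.1e-12) and -2.89 ± 0.24 against CKO (adjusted p = 2.9e-12, edgeR). The call carries an uncertainty of counting: 361 of its 1405 exonic bases (25.7%) also belong to exons of Cadm3 on the same strand. Cadm3, a neuronal adhesion gene, fell alike, from a median of 361 to 46.2 CPM (log2 change -2.84, adjusted p = 1.2e-16, edgeR), and how reads of the shared bases were assigned was not tested.

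**Figure D2:**
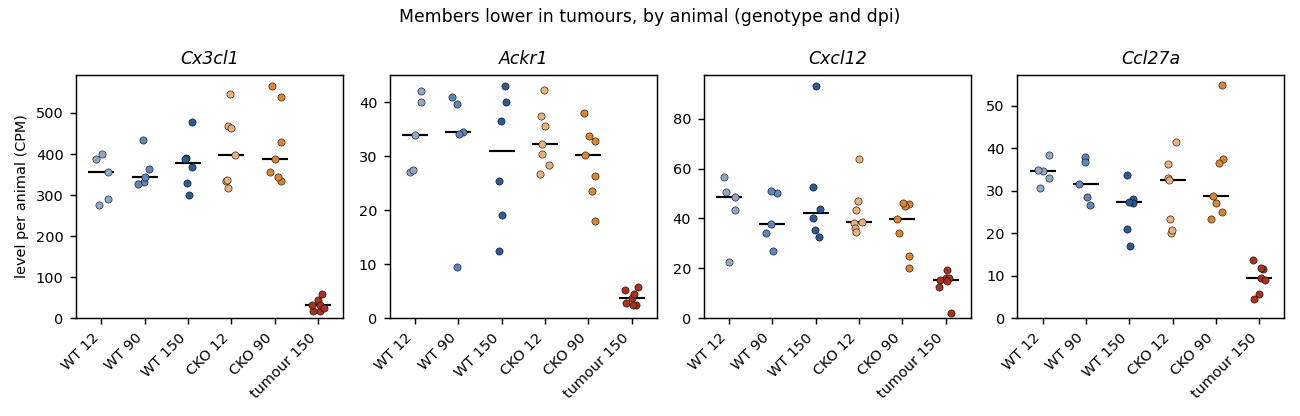
Level of the 4 genes called lower in tumours (vertical axes, CPM from 0) in each of the 37 animals (points), by genotype and dpi, with the group median as a line. For Cx3cl1 the tumours reach at most 58.3 CPM, and the lowest other animal is at 275 CPM.

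Cxcl10, an interferon-inducible ligand of CXCR3 (chr5:92346638-92348889, minus strand), had the largest fitted change of the 29 tested genes in both comparisons. It was at 0 CPM in 5 of 6 WT animals at 150 dpi and at 0.0945 CPM in the other, and at 0, 0.153 and 0.798 CPM in CKO at 90 dpi. The tumours had 2.58, 3.08, 5.25, 33.5, 33.6, 47.2 and 144 CPM. All 7 tumours exceeded all animals of both groups, while WT_22178 at 12 dpi, at 3.27 CPM, lay above the 2 lowest tumours. With 1 count over all WT animals at 150 dpi, the ratio of pooled levels was 2190 (95% counting interval 393 to 86600), and against CKO at 90 dpi, with 34 counts, it was 188 (134 to 271). Without Tumor_21354, which held 5115 of the 8614 tumour counts, the ratios were 1170 and 101. These intervals cover counting error only. The fitted change was 7.01 ± 0.96 against CKO (adjusted p = 1.6e-07) and 10.07 ± 1.43 against WT (adjusted p = 3.4e-07, edgeR). Without Tumor_21354 these were 6.28 and 9.26, and without WT_21593 the change against WT was 11.87.

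Its neighbour Cxcl9 (chr5:92321347-92328079, minus strand), which shares the receptor CXCR3, did not pass the filter. It had 0 counts in all WT animals at 90 and 150 dpi, and 0, 0.0490 and 0.299 CPM in CKO at 90 dpi. WT at 12 dpi had 0, 0.304 and 0.870 CPM (lowest, median and highest). The tumours had 0, 0.215, 0.539, 1.26, 4.27, 6.04 and 58.8 CPM. Those at 0, 0.215 and 0.539 CPM lay below the highest WT animal at 12 dpi. Over the group, the tumours were at least 207-fold higher than WT at 150 dpi (against a floor of 3 counts), and at least 39.9-fold higher without Tumor_21354, from which 2084 of the 2441 counts came. Cxcr3 itself stayed low and was not tested: the tumours ran from 0 to 0.988 CPM, with 60 counts in all, and WT at 150 dpi from 0 to 0.255 CPM.

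Promoter windows of Cxcl10, Cxcl9 and Cxcl1 are shown because these ligands were higher in tumours and their windows hold matches to the motif searched, that of NF-kB, a factor of inflammatory transcription (GGGNNNNNCC, on both strands, overlapping matches joined). Each line gives the 250 bases before the RefSeq start (GRCm38.p6), 5′ to 3′ on the gene's strand, with the matches in capitals. They lie at chr5:92348890-92349139, chr5:92328080-92328329 and chr5:90890995-90891244.
Cxcl10: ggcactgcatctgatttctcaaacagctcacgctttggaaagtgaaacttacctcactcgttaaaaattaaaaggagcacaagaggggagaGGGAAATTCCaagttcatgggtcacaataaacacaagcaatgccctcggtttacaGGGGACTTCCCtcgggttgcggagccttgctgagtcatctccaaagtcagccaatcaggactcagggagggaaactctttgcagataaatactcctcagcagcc
Cxcl9: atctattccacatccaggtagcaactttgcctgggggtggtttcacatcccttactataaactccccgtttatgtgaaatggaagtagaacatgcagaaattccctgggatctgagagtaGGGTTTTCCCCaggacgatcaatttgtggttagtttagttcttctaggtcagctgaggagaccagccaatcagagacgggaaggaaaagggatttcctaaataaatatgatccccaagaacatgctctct
Cxcl1: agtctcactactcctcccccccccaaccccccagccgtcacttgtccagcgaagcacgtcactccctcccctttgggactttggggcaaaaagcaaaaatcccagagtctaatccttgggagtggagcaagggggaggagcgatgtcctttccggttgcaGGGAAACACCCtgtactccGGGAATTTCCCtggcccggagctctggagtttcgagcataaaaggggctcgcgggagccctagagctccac
The Cxcl10 window held 3 matches, the nearest beginning 103 bases before the start. The Cxcl1 window held 4, the nearest beginning 70 bases before the start, and the Cxcl9 window held 2. The motif is loose: 45.8% of 32851 RefSeq starts held it in a window of this length. Of the 59 genes, 44 were in the promoter table. Among the 12 starts of genes called higher in either comparison, 4 held the motif (33.3%), and among the 6 starts of the lower genes 3 did (50.0%). A match is a run of letters, not a bound site.

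Ccl5 attracts T cells and monocytes through several CC receptors, CCR1 among them (chr11:83525778-83530518, minus strand). It was at 0 CPM in 5 WT animals at 150 dpi and at 0.580 CPM in WT_21591, while CKO at 90 dpi had 0, 0.147 and 6.54 CPM. The tumours had 2.31, 2.90, 3.10, 9.46, 13.5, 29.6 and 63.3 CPM. All were above WT, but CKO_20647, at 6.54 CPM, lay among them. The ratio of pooled levels against WT, where 2 counts were seen, was 438 (95% counting interval 121 to 3620), and 264 without Tumor_16844. The fitted change was 8.04 ± 1.24 against WT (adjusted p = 1.5e-06) and 4.20 ± 0.80 against CKO (adjusted p = 4.3e-05, edgeR). It was 10.81 without WT_21591 and 7.43 without WT_21593, and 6.39 against CKO without CKO_20647.

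Ccl2 and Ccl12 are CCR2 ligands that attract monocytes. Ccl2 (chr11:82035571-82037453, plus strand) had no count in any WT animal at 150 dpi and 0, 0 and 1.61 CPM (lowest, median and highest) in CKO at 90 dpi. The tumours had 0.430, 0.439, 1.59, 1.89, 2.54, 4.24 and 24.8 CPM. Over the group they were at least 97.5-fold higher than WT at 150 dpi (floor of 3 counts), and at least 30.2-fold without Tumor_21354, which held 880 of the 1150 counts. The tumours overlapped with CKO at 90 dpi through CKO_22154, and at 12 dpi CKO_21724 (1.51 CPM) and CKO_22364 (0.480 CPM) also lay among them. Against CKO the change was 4.23 ± 1.09 (adjusted p = 0.0017), and it was 2.92 without Tumor_21354 and 6.83 without CKO_22154. Against WT the adjusted p was 0.00031 (edgeR), with a fitted change of 8.89, 7.61 without Tumor_21354.

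Ccl12 (chr11:82101845-82103400, plus strand) was at 0, 0 and 0.871 CPM in WT at 150 dpi and at 0, 0.385 and 1.28 CPM in CKO at 90 dpi. The tumours had 1.29, 2.15, 2.85, 8.94, 17.3, 22.8 and 38.6 CPM and did not overlap with either group. The lowest tumour was below 3 of the 5 WT animals at 12 dpi, which had 0, 0.870, 1.67, 2.10 and 3.95 CPM. It was also below CKO_22364 at 12 dpi, at 1.32 CPM. The change was 5.71 ± 1.02 against WT (adjusted p = 1.8e-05), 6.58 without WT_21593, and 4.92 ± 0.84 against CKO (adjusted p = 8.6e-06, edgeR).

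Ccl3 and Ccl4 are CC ligands made by activated microglia and macrophages. Ccl3 (chr11:83647844-83649355, minus strand) was at 0, 0 and 0.378 CPM in WT at 150 dpi, at 0, 0.307 and 0.734 CPM in CKO at 90 dpi and at 0.549, 3.23 and 10.8 CPM in tumours. Only the tumours and WT were separate, since Tumor_16713 lay below the highest CKO animal, and at 12 dpi WT reached 1.95 CPM and CKO 1.79 CPM. The change was 5.06 ± 1.01 against WT (adjusted p = 8.5e-05), 6.43 without WT_21593, and 3.72 ± 0.79 against CKO (adjusted p = 0.00017, edgeR). Ccl4, not tested, ran from 0 to 7.83 CPM in tumours and reached 0.0945 CPM in WT at 150 dpi and 0.161 CPM in CKO at 90 dpi. Both were highest in Tumor_16844.

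Cxcl16 is a membrane-bound ligand of CXCR6 (chr11:70453983-70459984, minus strand). It was at 0, 1.63 and 3.19 CPM in WT at 150 dpi, at 0.246, 0.598 and 2.69 CPM in CKO at 90 dpi and at 4.09, 12.4 and 32.0 CPM in tumours, without overlap between these groups. WT_22184 at 90 dpi, at 5.41 CPM, lay above the lowest tumour. The change was 3.07 ± 0.60 against WT (adjusted p = 5.6e-05) and 3.83 ± 0.56 against CKO (adjusted p = 5.8e-07, edgeR). Its exons share 552 bases with Zmynd15 on the other strand, and whether counting used strand is not given in the sources used here. Cxcr6 stayed near 1 to 2 CPM: 0.567, 1.01 and 1.74 CPM in WT at 150 dpi and 0.813, 1.90 and 2.62 CPM in tumours, a change of 0.72 ± 0.76 (adjusted p = 0.47, edgeR). The value of 56.9 CPM for Cxcr6 in WT_21167 comes from the library of 93694 counts.

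Ccl6, Cxcl1, Ccl21a and Ccl25 rose less or less evenly. Ccl6, a myeloid CC ligand, was at 0.0681, 0.422 and 0.945 CPM in WT at 150 dpi and at 0, 1.62 and 6.08 CPM in tumours. Its change was 2.54 ± 0.88 against WT (adjusted p = 0.017) and 2.07 ± 0.74 against CKO (adjusted p = 0.019, edgeR), and the second was not called without Tumor_16840 (1.44, adjusted p = 0.107). Cxcl1, which acts on OPCs through CXCR2, was at 0, 0 and 0.334 CPM in WT at 150 dpi and at 0.215, 1.10 and 2.80 CPM in tumours. It was not highest in a tumour: CKO_21724 at 12 dpi had 3.36 CPM. Its change was 3.38 ± 1.28 against WT (adjusted p = 0.029) and 4.22 ± 1.12 against CKO (adjusted p = 0.0020, edgeR). Against WT it was 4.95 without WT_21593, and it was not called without WT_21590, WT_21591 or WT_22064 (adjusted p = 0.0528, 0.0507 and 0.0765). Ccl21a, at 0 to 5.19 CPM in tumours, has near-identical copies (Ccl21b and Ccl21c), so its share is uncertain. Ccl25 differed by only 0.60 on the log2 scale from WT (adjusted p = 0.032), and its exons share 204 bases with Elavl1 on the other strand.

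**Figure D3:**
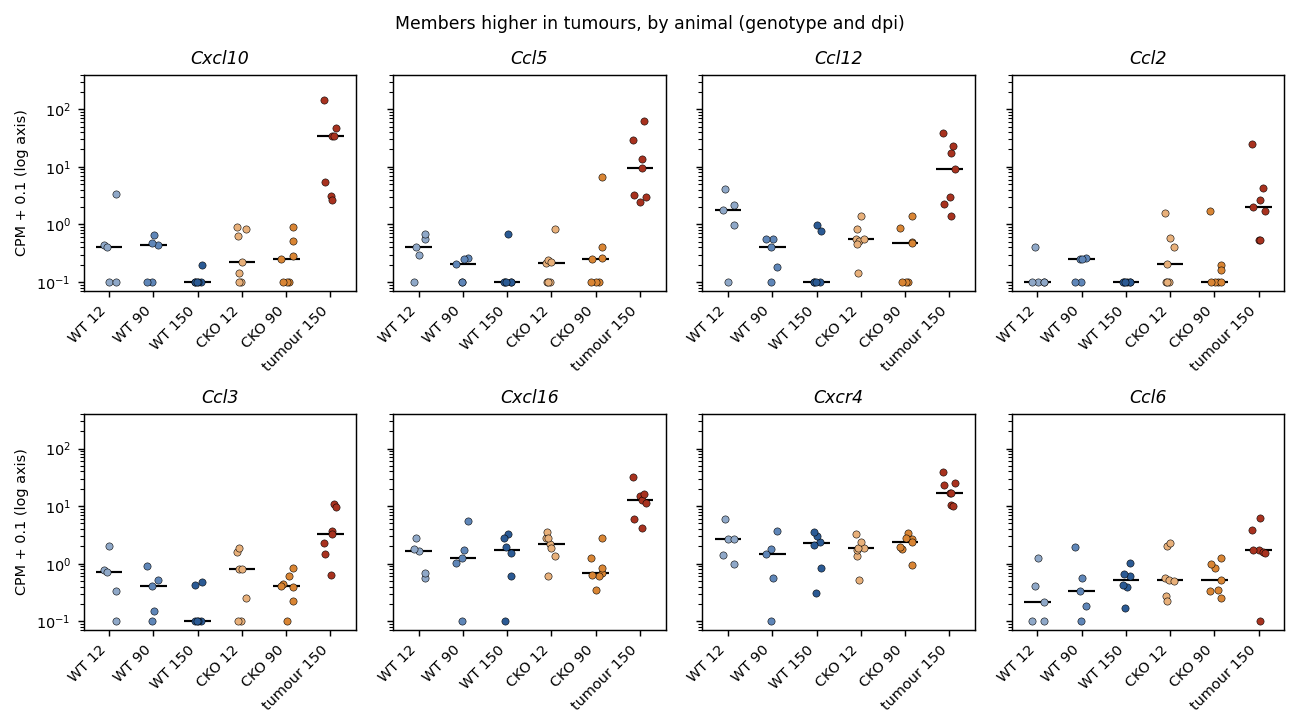
Level of 8 genes called higher in tumours (CPM + 0.1, log axis) in each of the 37 animals (points), by genotype and dpi, with the group median as a line. Points at 0.1 had no count, and for Cxcl10 and Cxcr4 the 7 tumours lie above every WT animal at 150 dpi and every CKO animal at 90 dpi.

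Cxcl14, a brain and skin CXC ligand whose receptor is debated, did not move with the others. It was at 6.23, 12.5 and 17.6 CPM in WT at 150 dpi, 11.8, 12.9 and 20.9 CPM in CKO at 90 dpi and 6.60, 16.2 and 29.2 CPM in tumours. The change was 0.27 ± 0.28 against WT (adjusted p = 0.45) and 0.16 ± 0.26 against CKO (adjusted p = 0.65, edgeR). Per kilobase of exons, medians in WT at 150 dpi were led by Cx3cl1 (96.0 CPM), Ackr1 (22.0 CPM), Ccl27a (11.5 CPM) and Cxcl14 (6.86 CPM). In tumours they were led by Ccl12 (16.7 CPM), Cxcl10 (14.9 CPM), Ccl5 (9.86 CPM), Cxcr4 (9.42 CPM), Cxcl14 (8.87 CPM) and Cx3cl1 (7.94 CPM). The order within tumours rests on medians whose ranges overlap widely. It also rests on the division by length, which raises short genes such as Ccl12 (537 exonic bases). Without it, tumour medians were 33.5 CPM for Cxcl10, 31.2 CPM for Cx3cl1, 17.0 CPM for Cxcr4 and 8.94 CPM for Ccl12. Whether this division suits the amplified bulk libraries was not tested.

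Among the receptors, Cxcr4 was the clearest. CXCR4 is the signalling receptor of CXCL12 and drives migration of leukocytes, neural precursors and many tumour cells (chr1:128588199-128592293, minus strand). It was at 0.204, 2.15 and 3.40 CPM in WT at 150 dpi, at 0.834, 2.26 and 3.33 CPM in CKO at 90 dpi and at 9.84, 17.0 and 39.0 CPM in tumours. Every tumour exceeded every other animal, the highest of which was a WT animal at 12 dpi with 5.78 CPM. The change was 3.55 ± 0.54 against WT (adjusted p = 1.2e-06) and 3.26 ± 0.47 against CKO (adjusted p = 4.8e-07, edgeR). The ligand Cxcl12 and the receptor Cxcr4 thus moved in opposite directions. Ackr3, the scavenging receptor of CXCL12, was at 16.4, 22.7 and 34.0 CPM in WT at 150 dpi and spread from 6.68 to 30.6 CPM over the tumours, with a median of 9.02 CPM. Its change of -0.57 ± 0.30 was not called (adjusted p = 0.12, edgeR), but it was without Tumor_16713 (-0.75, adjusted p = 0.0376) or without Tumor_21354 (-0.87, adjusted p = 0.0121), the tumours with about 30 CPM.

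Ccr2, the monocyte receptor of CCL2 and CCL12, was at 0, 0.324 and 2.36 CPM in WT at 150 dpi, 0, 0.246 and 0.550 CPM in CKO at 90 dpi and 0.848, 1.18 and 7.95 CPM in tumours. It was called against CKO (3.24 ± 0.90, adjusted p = 0.0031) without overlap, and not against WT (2.09 ± 0.93, adjusted p = 0.064, edgeR). Against WT it passed with median-ratio (RLE) size factors (adjusted p = 0.0474) and with DESeq2 (adjusted p = 0.0352), among other settings, and without WT_21593 the change was 3.24 (adjusted p = 0.0172). Animals at 12 dpi reached 2.43 CPM in WT and 2.04 CPM in CKO. Ccr1, another myeloid receptor of CCL3 and CCL5, was not tested: the tumours had 0.135 to 12.2 CPM, and WT at 150 dpi 0 to 0.334 CPM.

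Ccr9, the CCL25 receptor of thymus and gut T cells, was at 0.764, 1.28 and 2.03 CPM in WT at 150 dpi and 1.35, 3.98 and 5.82 CPM in tumours (1.45 ± 0.37, adjusted p = 0.0015, edgeR). In CKO at 90 dpi it was at 2.05, 3.19 and 4.09 CPM, and the tumours' change of 0.14 ± 0.32 was not called (adjusted p = 0.75). WT at 90 dpi, apart from the shallow WT_21167 at 0, had 2.00, 2.73, 3.85 and 7.25 CPM, and the difference between these WT groups was not called (adjusted p = 0.51). An annotated transcript on the other strand covers 1932 of the 10260 exonic bases of Ccr9. Cxcr2, the CXCL1 receptor of OPCs and neutrophils, was level in all groups, with medians from 7.54 to 9.58 CPM and a change of -0.26 ± 0.23 against WT (adjusted p = 0.38, edgeR).

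Levels varied widely between tumours, from 2.58 to 144 CPM for Cxcl10. Tumor_21354 was the highest for 7 of the 15 genes called higher in either comparison, and Tumor_21256 the lowest for 5 and the highest for 3. Cxcl10 and Cxcl9 were both highest in Tumor_21354. Cxcl13, a B cell attractant that was not tested, reached 85.6 CPM in Tumor_21354, 18.0 CPM in Tumor_16844 and 17.8 CPM in Tumor_16840, and was under 4 CPM in the others. Ccl5, in contrast, was highest in Tumor_16844 and Ccr1 in Tumor_16713. Each tumour had 2 libraries, and the median difference within a tumour was 1.14 for Cxcl10, 0.50 for Ccl5, 0.22 for Cxcl16 and 0.18 for Cxcr4 on the log2 scale, against SDs over tumours of 2.22, 1.79, 1.09 and 0.72. For Ackr1 (0.65 within, SD 0.49) and Ccr2 (1.18 within, SD 1.17) the libraries of one tumour differed by as much as tumours did, and the libraries of Tumor_16844 gave 14.9 and 57.4 CPM for Cxcl10, so orders among tumours are uncertain. The libraries of one tumour are not independent animals, and the labels do not say how they were split.

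Marker lists of immune cells were measured beside these genes, and 24.3% of all genes were called higher against WT and 26.4% against CKO at 90 dpi. Microglial markers summed to 310, 342 and 395 CPM in WT at 150 dpi and 435, 586 and 1224 CPM in tumours, and 10 of 13 were called higher and 1 lower against WT. Monocyte or macrophage markers summed to 103 to 192 CPM in WT at 150 dpi and 83.2 to 1687 CPM in tumours, with 3 of the 10 tested called higher against WT and 7 against CKO. Of T or NK cell markers, 4 of 12 were tested, 1 was called higher against WT and 3 against CKO, and they summed to 1.13 to 4.93 CPM in WT at 150 dpi and 2.69 to 34.9 CPM in tumours. Of dendritic cell markers, 1 of 6 was called higher against WT and 2 against CKO, and the 1 B cell marker tested was not called. Neutrophil markers, none of them tested, were at 0 to 2.16 CPM in tumours, with Ly6g and Ltf at 0 in all 7. By tumour, Tumor_21354 had the highest microglial (1224 CPM) and T or NK sums (34.9 CPM), Tumor_16844 the next microglial sum (1031 CPM), and Tumor_16713 the highest monocyte or macrophage sum (1687 CPM). The part of these cells in the rises was not tested.

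**Figure D4:**
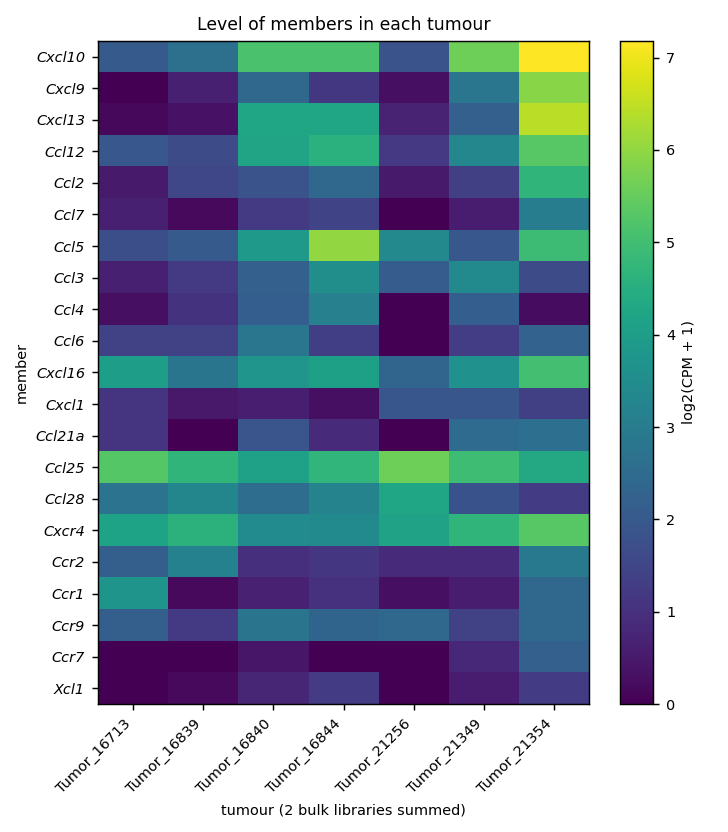
Level of 21 genes (rows, log2(CPM + 1)) in each of the 7 tumours (columns). Cxcl10, Cxcl9, Cxcl13, Ccl12 and Ccl2 are highest in Tumor_21354, and Ccl5, Ccl3 and Ccl4 in Tumor_16844.

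None of the 29 genes was called in the comparisons without tumours (edgeR). CKO and WT were compared at 12 dpi (0 of 29 called, beside 0.0183% of all genes) and at 90 dpi (0 of 29, beside 0.0489%). Over time, CKO at 90 against 12 dpi gave 0 calls (0% of all genes), WT at 90 against 12 dpi 0 (0.00612%) and WT at 150 against 90 dpi 0 (0.0183%, edgeR throughout). At an unadjusted p under 0.05 these comparisons held 1, 2, 2, 2 and 2 genes, and DESeq2 called 0 in each. The genes at that level were Ccl21a (lower in CKO than WT at 12 dpi), Ccl5 and Cxcr6 (CKO against WT at 90 dpi), Cxcl1 and Ccl5 (CKO over time), Ccl12 and Ccl21a (WT at 90 against 12 dpi), and, among others, Ccr9 (WT at 150 against 90 dpi). The lowest adjusted p was 0.51, for Ccr9 in WT at 150 against 90 dpi (log2 change -1.54 ± 0.40). With so few of all genes called, 0 of 29 is near the background and says nothing particular about these genes.

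The difference between tumours and WT at 150 dpi was then set against that between CKO and WT at 90 dpi (an interaction term), and it was called for 12 genes. It was positive for 8 (Ccl12, Ccl2, Ccl3, Ccl5, Ccr9, Cxcl10, Cxcl16 and Cxcr4), beside 14.2% of all genes, and negative for 4 (Ackr1, Ccl27a, Cx3cl1 and Cxcl12), beside 15.8%. Cx3cl1 changed by -3.77 ± 0.31 (adjusted p = 6.0e-12), Cxcl16 by 4.25 ± 0.83 (adjusted p = 0.00013) and Cxcr4 by 3.24 ± 0.73 (adjusted p = 0.00077, edgeR). Of all called genes 47.2% were positive with TMM scaling and 57.3% with RLE size factors, under which the split of the 12 was again 8 and 4.

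Genes that act with chemokines were taken from lists, which were chosen with earlier results of these data known. Beside them, 24.3% of all tested genes were called higher and 21.9% lower against WT. Against CKO at 90 dpi these shares were 26.4% and 22.6%. Of 33 inducers of chemokine transcription (NF-kB, interferon and cytokine genes), 29 were tested, 26 rose and none fell against WT, and 25 rose against CKO at 90 dpi. Il1b (5.51 ± 1.13, adjusted p = 0.00012) and Irf7 (5.18 ± 0.72, adjusted p = 2.3e-07, edgeR) had the largest rises. The list sum was highest in Tumor_21354 (1639 CPM) and next in Tumor_16844 (1125 CPM), and interferon gamma itself, Ifng, reached 0.621 CPM among the tumours and was at 0 in all other groups. Whether some inducers passed the filter mainly through their counts in tumours was not examined. The numbers thus describe the inducers that passed, and no median over them is given.

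Of 33 genes of chemokine receptor signalling, 32 were tested. Against WT 13 rose and 6 fell, beside 24.3% and 21.9% of all genes. Against CKO 12 rose and 9 fell, beside 26.4% and 22.6%. Their median log2 change against WT was 0.24, beside 0.06 over all genes tested. The largest rise was in Rgs1 (4.00 ± 1.06, adjusted p = 0.0021, edgeR), a leukocyte brake on G protein signalling. The largest falls were in Ptk2b (-5.19 ± 0.19, adjusted p = 6.7e-22) and in Gnai1 (-2.76 ± 0.26, adjusted p = 2.9e-11, edgeR), which had medians of 345 and 814 CPM in WT at 150 dpi. Of 10 genes that process or scavenge chemokines, 7 were tested, and 5 rose and none fell against WT. The 5 included Cpm (2.09 ± 0.52, adjusted p = 0.0012) and Adam17, which sheds CX3CL1 (1.46 ± 0.23, adjusted p = 1.5e-06, edgeR). Mmp9, Ctsg and Cpn1 were at 0 in WT at 150 dpi. Ctsg and Cpn1 were also at 0 in WT at 90 dpi, Cpn1 in CKO at 12 dpi, and Ctsg in all 7 tumours. Of 7 family genes with other names, Cx3cr1 and Cmklr1 (the chemerin receptor, 3.01 ± 0.61, adjusted p = 0.00010) rose and Pitpnm3 fell (-4.17 ± 0.27, adjusted p = 1.9e-15, edgeR).

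Many of the 59 genes lie in clusters, which are given as counts without a test. Against WT, 24.3% of all tested genes were called higher and 21.9% lower. Ccl2, Ccl3, Ccl5, Ccl22, Cxcl1 and Cxcl10 passed the filter mainly through their levels in tumours. The counts by cluster thus describe only the genes that passed. On chromosome 11, from 82035571 to 83664683 (GRCm38), lie 11 CC ligands, of which 6 were tested and 5 were higher against WT (Ccl2, Ccl12, Ccl5, Ccl6 and Ccl3), while Ccl9 was not called (1.68 ± 0.73, adjusted p = 0.056, edgeR). On chromosome 5, from 90759360 to 92348889, lie 7 CXC ligands, of which 3 were tested and 2 (Cxcl1 and Cxcl10) were higher. On chromosome 8, from 94745590 to 94812036, Cx3cl1 fell while its neighbours on either side, Ccl22 (1.99 ± 1.16, adjusted p = 0.16) and Ccl17 (0.16 ± 0.76, adjusted p = 0.89), were not called. On chromosome 9, 8 receptors lie from 120092114 to 124147699, of which 4 were tested and Ccr9 alone was called against WT.

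The 30 genes that did not pass the filter had few counts outside tumours. Ccl26 had no count in any bulk library. Besides Cxcl9, Cxcl13, Ccl4 and Ccr1, counts were concentrated in tumours for Ccl7 (366 of 388 counts), Ccl19 (245 of 309), Ccr7 (161 of 167), Xcl1 (126 of 127) and Ccl8 (68 of 74). Tumor_21354 alone held 253 of the 366 tumour counts of Ccl7, 127 of the 161 of Ccr7 and 51 of the 68 of Ccl8. Tumour and WT totals differ in depth, so pooled levels give the comparison: Ccl19 was 20.8 times (95% counting interval 7.03 to 101) the level of WT at 150 dpi, but 8.94 times without Tumor_21354, which held 165 of the 245 counts, and Xcl1, a ligand made by NK and CD8 T cells, at least 10.7-fold higher. Ccr7, the lymph node homing receptor, was found in 3 tumours. The lowest were Ccr8 (5 counts in 1 tumour), Ccl20 and Ccl21c (3 counts each).

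In the small libraries, which were amplified by PCR and come from CKO mice at 12 and 90 dpi only, 9 genes had a count above 0 in at least 50% of the 112 10-cell libraries. Among them were Ccr4 (104 libraries), Cxcl14 (103), Cx3cl1 (102), Cxcr2 (102), Ccl27a (99), Cxcl12 (77), Ackr1 (69) and Ccl9 (64). Cxcr4 was seen in 3 libraries, Cxcl10 in 4 and Cxcl1 in 0. Were the 112 libraries independent, a count of 0 would allow a share of up to 2.68%. Their titles carry only a sex and a number that many libraries share, so they cannot be taken as independent animals. Ackr3, at a bulk median of 18.8 CPM, was seen in 32. Ccr4, the receptor of CCL17 and CCL22, had a median of 0.108 CPM over the 14 bulk CKO animals at 12 and 90 dpi, and its median in 10-cell libraries was 1.19 CPM at 12 dpi and 3.54 CPM at 90 dpi. It was found in 76 of 80 pool-and-split libraries as well (medians 1.63 and 6.84 CPM). With at least 5 counts asked for, Ccr4 was in 85 of the 112 libraries, Ackr3 in 12, Ccl9 in 27 and Cxcr4 in 0. These shares were not tested. The amplification and library kits differed from those of the bulk samples, and CPM of the small libraries use unscaled totals.

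**Figure D5:**
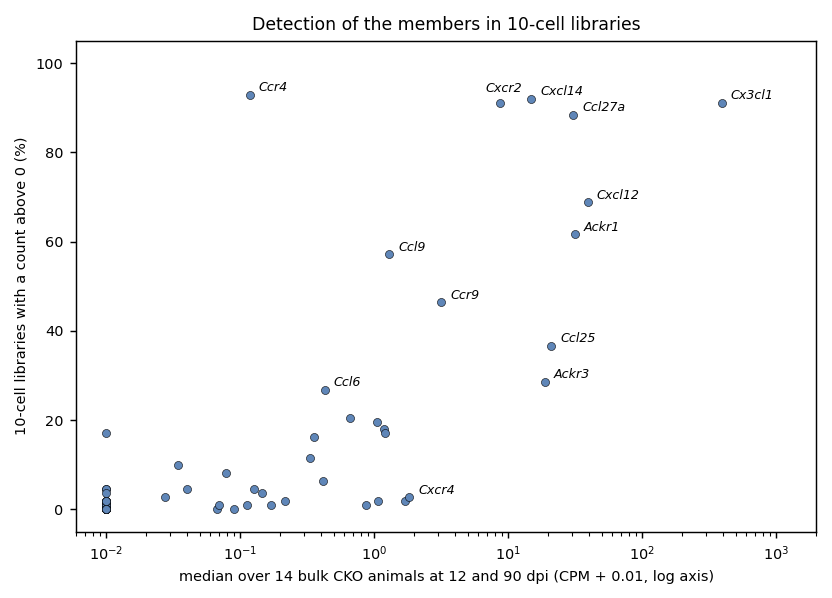
Share of the 112 10-cell libraries with a count above 0 for 58 of the 59 genes (vertical axis, percent) against its median over 14 bulk CKO animals at 12 and 90 dpi (CPM + 0.01, log axis). Ccr4 stands at 92.9% with a bulk median of 0.108 CPM, and Cxcr4 at 2.68% with 1.82 CPM.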

How the data were processed

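Values are the expected counts per gene that the authors deposited, made with RSEM and Bowtie2 on GRCm38 per the submitters' processing notes, neither scaled nor pooled. Per the labels' protocols, bulk samples (10 µm sections) went through linear T7 amplification and small libraries (8 µm sections) through PCR. Of the 59 genes, 58 had identical coordinates in GENCODE M21. The 92 spike-ins were left out.

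Where an animal had 2 libraries their expected counts were summed, and the sums were rounded. Bulk libraries with identical values: 0 pairs. The model was edgeR's quasi-likelihood fit (version 4.0.16 under R 4.3.3) over the 37 animals, with group and sex as terms and TMM library scaling. It kept 16349 genes by filterByExpr with its count set to 10 and its total to 15, and Benjamini-Hochberg adjustment ran over these genes in every contrast. The SE is the absolute log2 change divided by the root of F, and the common coefficient of variation was 0.418. The procedure was tested on simulated data. Per the labels, replicates are different mice. CPM of animals use TMM-scaled totals, and CPM of single libraries (the small libraries and the 2 libraries of a tumour) use unscaled totals. Pooled ratios use summed counts with exact 95% intervals and a floor of 3 counts over the group.

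The genes and lists were chosen with earlier results of these data known. Genes named with statistics were the 14 of smallest adjusted p against WT and fixed ligand and receptor pairs; Cxcl9, Cxcl13, Cxcr2, Ccr4, Ccl25, Ccl21a, Ccl28 and the others were named after their values were seen. Of each list the 2 largest rises and falls could be named; Adam17, Ifng and Snap25 were chosen after their values were seen. Results were recomputed with DESeq2 1.42.0, with RLE scaling, with every gene kept, with genes averaging 10 CPM or more, without the sex term, from 1 library per animal (the deepest), from only the groups in a contrast, and with each animal left out. Mean levels were recomputed from unscaled totals, and detection with a threshold of 5 counts. Pooled ratios without each tumour were added after seeing the data. Protein sequences were not used here, and some genes are not reported here.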

Additional observations from a re-analysis of the deposited data

Results flagged for a closer look

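Of 73 groups of animals examined (genes named with statistics, groups with a median of at least 1 CPM), 10 held an animal whose gap to its nearest neighbour was large for the group's range (Dixon's criterion). It flags about 1 group in 20 by chance if values are normally distributed. Unlogged CPM need not be, so the chance rate here is uncertain. Tumor_21354 stood above the other tumours for Cxcl10 (144.3 CPM, others 2.58 to 47.2 CPM), Ccl2 (24.83 CPM, others 0.430 to 4.24 CPM) and Cxcl16 (32.03 CPM, others 4.09 to 16.0 CPM). Tumor_21349 stood below the others for Cxcl12 (2.297 CPM, others 12.4 to 19.2 CPM). The shallow WT_21167 stood apart at 90 dpi for Ackr1 (9.479 CPM, others 34.0 to 41.0 CPM) and Cxcr6 (56.87 CPM, others 0.566 to 2.08 CPM). Single high values were also Cxcl12 in WT_21591 at 150 dpi (93.14 CPM, others 32.6 to 52.8 CPM) and CKO_22364 at 12 dpi (63.94 CPM, others 34.5 to 46.8 CPM), Cxcl14 in CKO_22149 at 90 dpi (20.88 CPM, others 11.8 to 14.9 CPM) and Ccr9 in WT_22180 at 12 dpi (3.682 CPM, others 1.74 to 2.13 CPM).

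The difference between tumours and WT at 150 dpi was unlike that between CKO and WT at 90 dpi for 12 genes. This was by the test of the interaction term itself (edgeR, adjusted p under 0.05). With no CKO animal without a tumour at 150 dpi, the term is not a change of genotype effect with time alone. On the log2 scale the term was negative for Cx3cl1 (-3.765), Ackr1 (-2.654), Cxcl12 (-1.717) and Ccl27a (-1.535). It was positive for Cxcl10 (10.264), Ccl2 (8.13), Ccl12 (5.328), Ccl3 (5.308), Ccl5 (5.083), Cxcl16 (4.247), Cxcr4 (3.243) and Ccr9 (1.681). For Ccr9 the tumours were not called against CKO at 90 dpi (0.14 ± 0.32, adjusted p = 0.75, edgeR). The WT medians of Ccr9 were 2.73 CPM at 90 dpi and 1.28 CPM at 150 dpi, a difference that was not called. The values of Cxcl10 and Ccl2 depend on the prior count, since WT at 150 dpi held 1 and 0 counts.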

How the results depend on the processing

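Among 7 alternatives and 37 fits that leave out 1 animal each, no gene named with statistics that was called changed direction where it was tested. Called genes numbered 16 against WT at 150 dpi, 17 against CKO at 90 dpi and 12 for the interaction term. With a mean of at least 10 CPM, under which 8 of the 59 genes were tested, these became 5, 5 and 4, where 52.5%, 56.0% and 37.4% of all genes were called. With no filter 27 of 58 were called against CKO, where 30.0% of all genes were. The shares of all genes in the reported fit were 46.2%, 49.1% and 30.0%. With each animal left out they ranged from 14 to 21, from 15 to 21 and from 11 to 13. The 5 comparisons without tumours had 0 calls under every setting. Of 238 log2 changes recomputed under the alternatives for genes named with statistics, 3 crossed the threshold, all of them Ccr2 against WT at 150 dpi (adjusted p from 0.0172 to 0.134 over all settings and left-out animals). Of 1396 recomputed without 1 animal, 8 passed the threshold newly (Ackr3 and Ccr2 against WT) and 4 lost it (Cxcl1 against WT and Ccl6 against CKO). Fits in which a gene fell below the filter are not in these totals. Cxcl1 was tested in 32 of the 37 fits without 1 animal, and Ccl2 and Cxcl1 in 5 of the 7 alternatives. RLE size factors moved the median of all genes by 0.15 against WT and 0.17 against CKO, and DESeq2, which uses the same size factors, gave 7.06 for Ccl2 against WT. The deepest library of each animal gave 6.27 for Ccl5 against CKO. With at least 5 counts asked for in 10-cell libraries, 6 of 22 genes were seen in fewer libraries by over 1.5 times. No paired analysis was possible because the replicate numbers are those of single animals and the groups share none. Depth limits the genes that passed through tumours alone: a floor of 3 counts is 0.080 CPM over WT at 150 dpi.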
